A study of Mus musculus with 3 samples.

Results

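The 10 genes described here encode receptors of the IL-1, IL-4 and TNF families, Il1r1, Il1rap, Il1rl1, Il4ra, Tnfrsf1a, Tnfrsf1b, Tnfrsf10b, Tnfrsf11b, Tnfrsf12a and Tnfrsf21. They were taken by gene name from a table of 56748 genes, in which all 10 were listed as protein-coding. They were chosen with earlier results of these data known, so their shares and medians beside those of all genes are descriptions only. RNAseq was done on adult mouse ventricular cardiomyocytes (ACMs) of male and female WT mice aged 8 to 10 weeks. After 3 to 4 h of plating in medium with 5% serum, the cells were held in serum-free M199 with 0.1% BSA and 10 mM BDM, a myosin inhibitor that keeps cultured myocytes from contracting. For 16 h they received vehicle (0.1% BSA), mouse OSM at 10 ng/mL or human IL-6 at 10 ng/mL. RNA samples were pooled before sequencing, so each of the 3 conditions is 1 library, there is no replicate spread, and no P-value is given.

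IL-1 binds IL1R1, which then recruits the accessory chain IL1RAP and signals through the adaptor MYD88, IRAK kinases and TRAF6 to NF-kB. IL1RL1 (ST2), the receptor for IL-33, uses the same accessory chain. IL4RA binds IL-4 and forms signaling receptors with the common gamma chain or, in most non-hematopoietic cells, with IL13RA1, acting through JAK1 and STAT6. Among the TNF receptors, TNFR1 (Tnfrsf1a) carries a death domain and is found on most cells, TNFR2 (Tnfrsf1b) lacks one and binds TRAFs, and FN14 (Tnfrsf12a) is the receptor of TWEAK and is known to be induced by tissue injury and growth factors. DR5 (Tnfrsf10b) and DR6 (Tnfrsf21) are death receptors, and osteoprotegerin (Tnfrsf11b) is a secreted decoy for RANKL and TRAIL.

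Short stretches upstream of the start sites are shown first, because OSM acts through STAT factors and because the genes that were higher with OSM can be compared with those that were not. RefSeq promoter sequences (table build GRCm38.p6) were found for 8 of the 10 genes, as 10 windows, and each window matched the GRCm39 genome exactly at 1 place, which gave the coordinates below. Tnfrsf10b and Tnfrsf11b are not in that table. The 250 bases before each start were searched on both strands for STAT motifs (TTCNNNGAA, and TTC and GAA with 4 bases between them), an AP-1 motif (TGANTCA), a kappa B motif (GGGA, any base, TT, any base, CC) and a C/EBP motif (TTGCNNAA). TTCNNNGAA was in 7.02% of all 32851 windows and in those of Tnfrsf1a and Tnfrsf1b, and TTGCNNAA was in 9.56% of all windows and, for Il1r1 and Il1rl1, in 1 of the 2 windows of each gene. The matching windows end at the more upstream RefSeq start, and the windows before the main annotated transcripts held no match. The other motifs, found in 5.85% (STAT with 4 bases between), 6.75% (AP-1) and 0.980% (kappa B) of all windows, had no match in the windows of these receptors. An octamer-like motif (ATGNAAAT), added after the Il4ra window had been read, was in 5.03% of all windows, and 0.0365% held 3 or more matches, among them the Il4ra window with 3. Because that window had been read first, its matches were known in advance, and the share does not measure how rare they are. Il1rl1 held 1 octamer-like match, which overlaps its C/EBP match. In the lines below, all on GRCm39 and written 5′ to 3′ on the strand of the gene, capitals mark the match.
Tnfrsf1a, TTCNNNGAA, chr6:125326436-125326460, plus strand: gcttccTTCCGTGAAattgacaaca
Tnfrsf1b, TTCNNNGAA, chr4:144973603-144973631, minus strand: agcgcattcaTTCCCGGAAgagatgctgg
Il1r1, TTGCNNAA, chr1:40264097-40264124, plus strand: cctggcacgtTTGCTGAAtgcttctggc
Il4ra, ATGNAAAT, chr7:125151294-125151321, plus strand: ggggtggggcATGCAAATaagccagcga
Il4ra, ATGNAAAT, chr7:125151366-125151393, plus strand: ggggcggggcATGTAAATgaccgtgcac
Il4ra, ATGNAAAT, chr7:125151399-125151426, plus strand: ggggcgtcgcATGTAAATaagggacacc
The matches begin 244 bases before the RefSeq start for Tnfrsf1a, 181 for Tnfrsf1b, 133 for Il1r1, and 139, 67 and 34 for Il4ra. The files place the starts of Il4ra (125151292) and Tnfrsf1a (125326325) upstream of the RefSeq starts, so the stretches of both genes lie inside the gene as the files annotate it. A match is a description of the letters and not a binding site.

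The libraries held between 24939980 and 30773001 counts assigned to genes. Intervals below are 95% intervals of the counts (exact Poisson for a level, Clopper-Pearson for a ratio) and cover counting error only, not the spread between cultures. Socs3, a feedback inhibitor induced by STAT3, had 670 counts with vehicle, 646 with IL-6 and 18194 with OSM. Mitochondrially encoded genes took 17.4% of counts with vehicle, 16.1% with IL-6 and 13.6% with OSM. Levels are given as FPKM, the count scaled to gene length and to a constant of each library. Summed levels of 8 cardiomyocyte markers were 8633 FPKM with vehicle, 8910 with IL-6 and 11113 with OSM. The sums were 0.770 to 1.08 FPKM for 8 fibroblast markers and 7.13 to 7.72 FPKM for 8 endothelial markers. Of the cardiomyocyte markers, Ttn and Ryr2 were called lower with OSM than with vehicle (log2 -1.64 and -1.53, 2 of 8, against 5.43% of all genes). The intervals of 4 lay above and 4 below no difference (33.4% and 33.1% of all genes), and the median was 0.05. Ttn and Ryr2 are very long genes (117334 and 28790 bases). Coding genes of 12615 bases or more had a median of -0.72 and a 5th percentile of -1.69 in that comparison. Lymphocyte markers summed to at most 0.0738 FPKM and mast cell markers to at most 0.351 FPKM, with Fcer1a, Cma1, Tpsb2 and Ms4a2 at 0 in every library. Of the 8 macrophage markers, Ptprc, C1qa and C1qb were at 0 in every library, and the sum of 13.8, 14.4 and 39.9 FPKM with vehicle, IL-6 and OSM was mostly Cd68, at 12.01, 13.2 and 37.8 FPKM. The 8 smooth muscle and pericyte markers summed to 13.6, 13.6 and 16.1 FPKM, mostly Acta2. The part of other cell types in the results below was not tested, and in bulk RNA fewer cells of a type and less RNA per cell cannot be told apart.

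With vehicle, the 9 receptors with counts ran from 0.0281 FPKM (Tnfrsf11b) to 122 FPKM (Tnfrsf12a). Tnfrsf12a and Tnfrsf1a together made up 96.7% of the summed receptor level with vehicle, 96.2% with IL-6 and 97.1% with OSM. The receptors summed to 169.6 FPKM with vehicle, 164.7 FPKM with IL-6 and 335.1 FPKM with OSM. With vehicle the order by FPKM was Tnfrsf12a, Tnfrsf1a, Tnfrsf10b, Tnfrsf21, Il4ra, Tnfrsf1b, Il1r1, Il1rap, Tnfrsf11b and Il1rl1. The intervals of Tnfrsf21 and Il4ra, Il4ra and Tnfrsf1b, and Il1r1 and Il1rap overlapped, as did those of Tnfrsf11b and Il1rl1. With OSM, Il4ra came directly after Tnfrsf12a and Tnfrsf1a, and its interval lay above that of Tnfrsf10b. Tnfrsf12a was above 97.7% of the protein-coding genes that had counts with vehicle, and Il1r1 above 20.7% of them. FPKM uses the gene length deposited with the counts. For Il1rap (11360 bases) and Tnfrsf12a (1932 bases) that length is well above the main annotated transcript of GENCODE vM39 (4677 and 1008 bases). For Tnfrsf1b (3818 against 4913 bases), Il13ra1 (3712 against 4433) and Tnfsf12 (1515 against 1688) it is below, so the annotations differ. Levels set side by side between genes depend on the length used. Ratios between genes are therefore also given with the length of the main transcript, an alternative chosen after seeing the data. Those ratios set counts made on the deposited annotation against lengths from GENCODE.

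**Figure D1:**
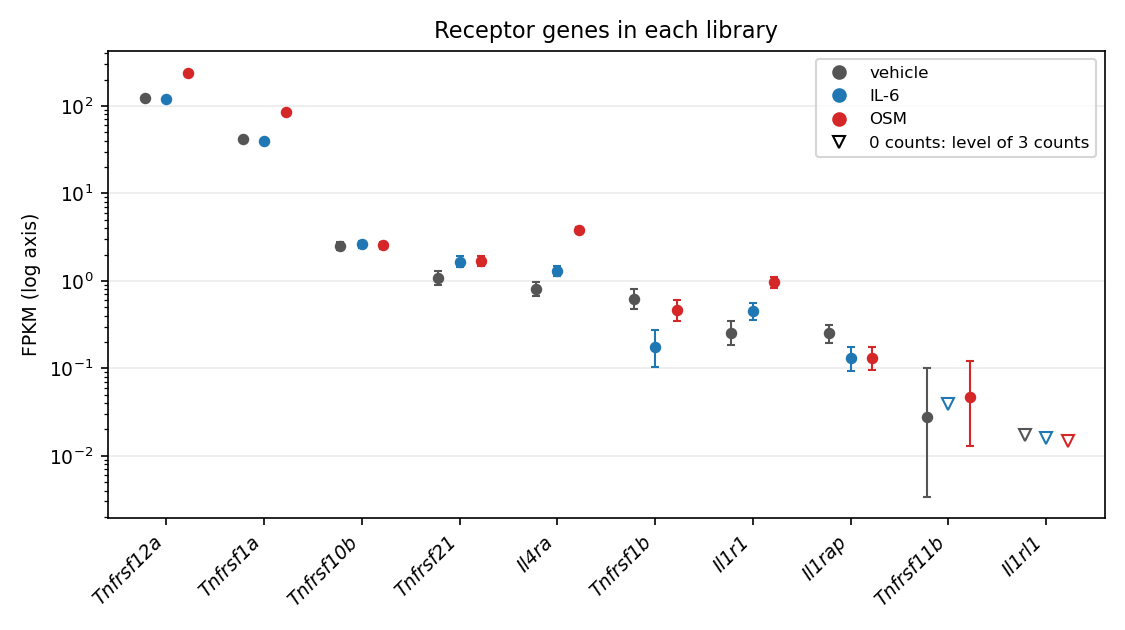
Level of each receptor gene in FPKM (log axis) in the vehicle, IL-6 and OSM libraries, with exact 95% Poisson intervals of the counts as bars and open triangles at the level of 3 counts where a library had 0 counts. Tnfrsf12a and Tnfrsf1a lie far above the other genes, and the OSM point lies above both other points for Tnfrsf12a, Tnfrsf1a, Il4ra and Il1r1.

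Changes were measured as the log2 ratio of TMM-scaled counts between libraries, and calls were made only for genes whose interval lay entirely past 2-fold. The comparisons share libraries, since vehicle enters both comparisons with vehicle and OSM enters both comparisons of OSM, so their values are set side by side and not counted as separate evidence. Of the 10 receptors, 8 had at least 10 counts over each pair of libraries (and at least 18 counts in every library), while Tnfrsf11b and Il1rl1 did not. With OSM against vehicle, Il4ra and Il1r1 were called higher (2 of 8, against 3.74% of all 15537 genes compared) and 0 were called lower (against 5.43%). With IL-6 against vehicle, 0 were called higher (against 1.77% of 15472 genes) and Tnfrsf1b was called lower (1 of 8, against 1.74%). With OSM against IL-6, Il4ra and Tnfrsf1a were called higher (2 of 8, against 4.24% of 15544 genes) and 0 were called lower (against 5.42%). The median log2 fold change of the 8 receptors was 0.81 for OSM against vehicle, beside 0.005 for all genes compared. It was 0.01 for IL-6 against vehicle (all genes -0.002), and OSM against IL-6 gave 1.06 (all genes 0.003).

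**Figure D2:**
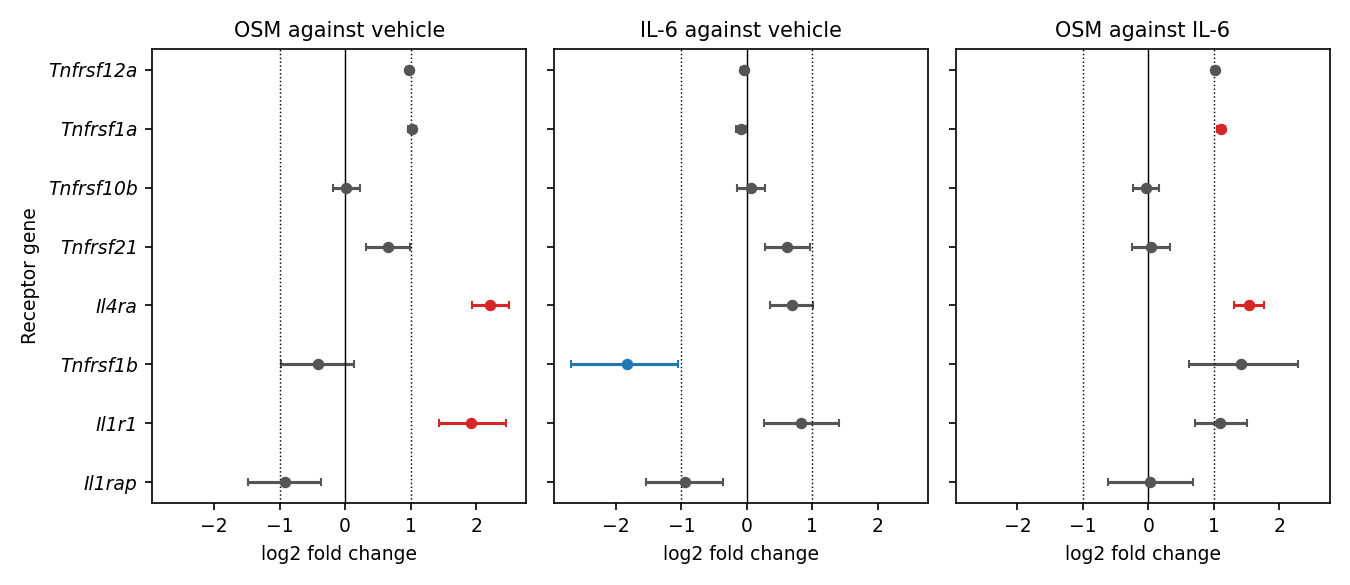
Log2 fold change of the 8 receptor genes with enough counts in each of the 3 comparisons, with 95% counting intervals as bars, a solid line at no difference and dotted lines at 2-fold. Red points were called higher and blue points lower, and the calls are Il4ra and Il1r1 (left), Tnfrsf1b (middle), and Il4ra and Tnfrsf1a (right).

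Among the IL-1 receptor genes, the ligand-binding chain Il1r1 was higher with OSM and the accessory chain Il1rap was not. Il1r1 (chromosome 1, 40264240 to 40356417, plus strand) had 41 counts with vehicle, 78 with IL-6 and 184 with OSM, or 0.255, 0.452 and 0.968 FPKM. The OSM level was the highest, the IL-6 level lay between, and the intervals of all 3 levels were apart. Il1r1 was 3.80-fold higher with OSM than with vehicle (log2 1.92, interval 1.43 to 2.45). The IL-6 value against vehicle was 0.83 (0.27 to 1.41) and that of OSM against IL-6 was 1.10 (0.71 to 1.498), neither wholly beyond 2-fold. With an assumed variation of 20% between replicates, the lower bound of Il1r1 for OSM against vehicle was 0.99 and the call was lost, and with a pseudocount of 1 FPKM the value was 0.65.

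Il1rap had 72 counts with vehicle, 40 with IL-6 and 45 with OSM, or 0.251, 0.130 and 0.133 FPKM. The vehicle library was the highest, and the IL-6 and OSM libraries overlapped. Against vehicle, the log2 value was -0.92 (-1.49 to -0.36) with OSM and -0.95 (-1.54 to -0.37) with IL-6, and neither was called. Per unit of length, Il1r1 and Il1rap were at 1.02 to 1 with vehicle (0.675 to 1.51), at 3.48 to 1 with IL-6 (2.35 to 5.23) and at 7.30 to 1 with OSM (5.24 to 10.4). With main transcript lengths these ratios were 0.452, 1.55 and 3.25 to 1. Il1rl1 had 0 counts in every library, which allows up to 0.0172 FPKM with vehicle, 0.0161 with IL-6 and 0.0146 with OSM at 3 counts. Il1r1 and Il1rl1 lie in a cluster of IL-1 receptor family genes, in which Il1r2 had 0, 1 and 1 counts and Il1rl2 had 0, 0 and 9 counts with vehicle, IL-6 and OSM.

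Il4ra was the receptor with the largest fold among the 8 compared for OSM against vehicle. Il4ra (chromosome 7, 125151292 to 125178646, plus strand) had 123 counts with vehicle, 212 with IL-6 and 677 with OSM, or 0.810, 1.30 and 3.78 FPKM. The intervals of the 3 levels did not overlap, and the order was vehicle, IL-6, OSM. Il4ra was 4.66-fold higher with OSM than with vehicle (log2 2.22, interval 1.94 to 2.51) and 1.53 (1.31 to 1.76) higher on the log2 scale than with IL-6. The IL-6 value against vehicle was 0.69 (0.36 to 1.02) and was not called. The call for OSM against vehicle held under all 15 alternative settings, with values from 1.40 to 2.35, while that against IL-6 was lost with an assumed variation of 20% (lower bound 0.70) and with a pseudocount of 1 FPKM (1.05).

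The other chain of this receptor in non-hematopoietic cells was more abundant. Il13ra1 had 2960, 2992 and 5298 counts, or 31.5, 29.7 and 47.8 FPKM, with vehicle, IL-6 and OSM. It was 0.60 (0.53 to 0.66) higher on the log2 scale with OSM than with vehicle, which is not wholly beyond 2-fold. Per unit of length, Il13ra1 exceeded Il4ra 38.9 times with vehicle (32.5 to 47.0), 22.8 times with IL-6 (19.8 to 26.4) and 12.7 times with OSM (11.7 to 13.7), or 28.8, 16.9 and 9.35 times with main transcript lengths. Il2rg, the common gamma chain, had 0, 1 and 4 counts, and the IL-13 decoy Il13ra2 had 0 in every library.

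Tnfrsf1a and Tnfrsf1b, which encode the receptors for TNF, differed in level and in change. Tnfrsf1a (chromosome 6, 125326325 to 125339447, plus strand) had 2746 counts with vehicle, 2773 with IL-6 and 6604 with OSM, or 41.9, 39.5 and 85.3 FPKM. Only the OSM library stood apart by more than a small margin, at about double the level of the others. The value for OSM against vehicle was 1.02 (0.96 to 1.09), whose interval includes 2-fold, so Tnfrsf1a was not called there, and IL-6 against vehicle gave -0.09 (-0.16 to -0.01). For OSM against IL-6 it was 1.11 (1.05 to 1.17) and was called higher. That call was lost with scaling by total counts (1.03, lower bound 0.97), with an assumed variation of 10% or 20%, and with the trend on gene length removed (0.96).

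Tnfrsf1b had 60 counts with vehicle, 18 with IL-6 and 53 with OSM, or 0.621, 0.174 and 0.465 FPKM. The IL-6 library was the lowest, and the vehicle and OSM intervals overlapped. Tnfrsf1b was called lower with IL-6 than with vehicle (log2 -1.84, interval -2.69 to -1.06), while OSM against vehicle gave -0.42 (-0.98 to 0.14) and OSM against IL-6 gave 1.42 (0.62 to 2.28). The call rests on 18 counts in the IL-6 library and was lost under 5 of the 15 alternatives, with values from -0.47 (pseudocount of 1 FPKM) to -1.84. Between vehicle and IL-6, summed endothelial markers were at 7.13 and 7.21 FPKM and macrophage markers at 13.8 and 14.4 FPKM, and of the mast cell list Kit had 68 and 18 counts and Hdc 8 and 24. Per unit of length, Tnfrsf1a exceeded Tnfrsf1b 67.4 times with vehicle (52.2 to 88.6), 227 times with IL-6 (143 to 384) and 184 times with OSM (140 to 245), or 103, 348 and 281 times with main transcript lengths.

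Tnfrsf12a, the TWEAK receptor gene, was the most abundant of the 10 in every library. Tnfrsf12a (chromosome 17, 23894419 to 23896442, minus strand) had 5972 counts with vehicle, 6225 with IL-6 and 13857 with OSM, or 122, 119 and 240.1 FPKM. The vehicle and IL-6 intervals overlapped and the OSM level was about double both. With OSM the value was 0.97 (0.93 to 1.02) against vehicle and 1.01 (0.97 to 1.06) against IL-6, and IL-6 against vehicle gave -0.04 (-0.09 to 0.01). Tnfrsf12a was not called because the intervals of both OSM values include 2-fold. Per unit of length, Tnfrsf12a exceeded Tnfrsf1a 2.92 times with vehicle, 3.01 times with IL-6 and 2.81 times with OSM, or 4.69, 4.84 and 4.53 times with main transcript lengths. In the annotation of the files Tnfrsf12a lies 218 bases from the oppositely oriented Hcfc1r1, for which 1645, 1687 and 2858 counts were listed. In GENCODE vM39 a transcript of Hcfc1r1 covers it. Whether the counting used the strand is not given in the sources used here.

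The death receptor genes Tnfrsf10b and Tnfrsf21 were called in 0 of the 3 comparisons. Tnfrsf10b had 345, 385 and 413 counts with vehicle, IL-6 and OSM, or 2.50, 2.61 and 2.54 FPKM, with overlapping intervals, and its value was 0.02 (-0.19 to 0.23) for OSM against vehicle. Tnfrsf21 had 112, 184 and 208 counts, or 1.08, 1.65 and 1.69 FPKM. Both cytokine libraries lay above vehicle for Tnfrsf21, with 0.65 (0.31 to 1.00) for OSM and 0.62 (0.27 to 0.97) for IL-6, and OSM against IL-6 gave 0.04. Tnfrsf11b had 2 counts with vehicle, 0 with IL-6 and 4 with OSM, at or close to the limit of 3 counts that a count of 0 allows, and no fold is given.

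In the comparison with OSM, fold changes ran with gene length across the genome, so each receptor was set beside the 500 compared protein-coding genes nearest in length. The median log2 value of those genes was 0.35 for Tnfrsf12a, 0.23 for Tnfrsf1a, -0.10 for Il4ra, -0.07 for Il1r1 and -0.43 for Il1rap. Among its 500, Il4ra had 4 genes with a higher value, Il1r1 had 17, Tnfrsf1a 41, Tnfrsf12a 58 and Tnfrsf21 64. For Il1rap 392 of the 500 had a higher value and 108 a lower one. With the trend on length removed, the values for OSM against vehicle were 0.85 for Tnfrsf1a, 0.73 for Tnfrsf12a, -0.43 for Il1rap, 2.35 for Il4ra and 2.08 for Il1r1. For IL-6 against vehicle, 4 of the 500 genes nearest in length had a lower value than Tnfrsf1b.

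**Figure D3:**
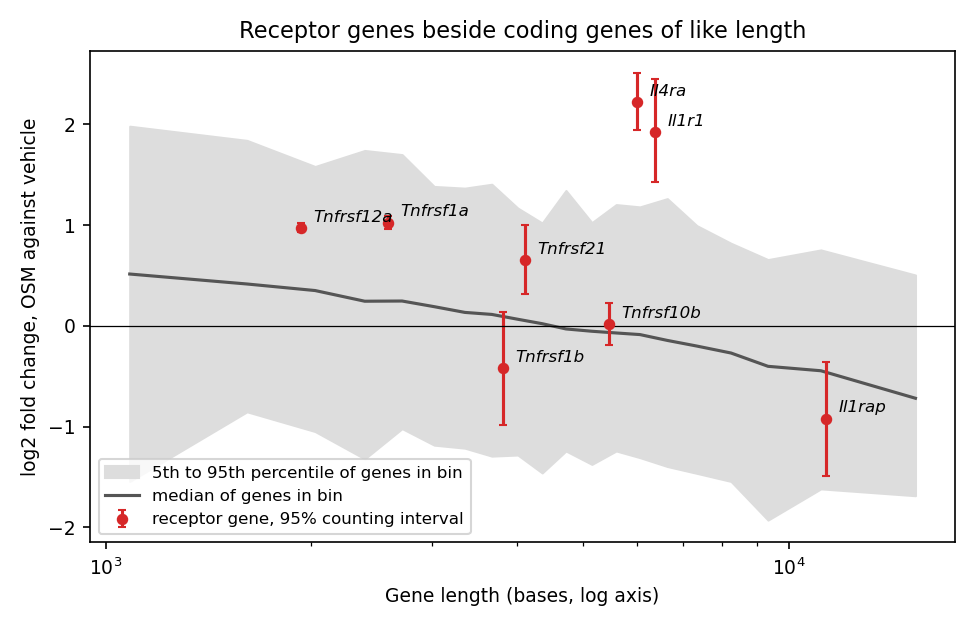
Log2 fold change for OSM against vehicle (y axis) by gene length in bases (x axis, log axis), with the 8 receptor genes in red with 95% counting intervals, and the median (line) and the 5th to 95th percentile (band) of compared protein-coding genes in 20 bins of length. The median falls from 0.51 in the shortest bin to -0.72 in the longest, and Il4ra and Il1r1 lie above the band.

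Transcripts of the ligands were scarce in these ACMs. Of the 10 ligand genes, Il13 and Tnfsf11 (RANKL) were at 0 in every library, and 6 reached 10 counts over vehicle and OSM together. Of these 6, 2 were called higher and 0 lower for OSM against vehicle (against 3.74% and 5.43% of all genes). The intervals of 2 lay above no difference and of 1 below (33.4% and 33.1% of all genes). Il33, the ligand of ST2, had 6 counts with vehicle, 4 with IL-6 and 55 with OSM and was called higher with OSM, at 7.75-fold above vehicle (log2 2.96, interval 1.74 to 4.46). Lta, a ligand of both TNF receptors, had 0, 6 and 18 counts and was called higher with OSM, at least 5.08-fold above the limit of 3 counts in the vehicle library, with a lower bound of the counting interval at log2 1.90. Lta passed the filter of 10 counts only through its OSM counts, so the filter and the call rest on the same counts. Tnf had 0, 0 and 4 counts, Il1a had 0, 0 and 4, Il1b had 6, 0 and 6, and Il4 had 9, 7 and 2. Tnfsf12 (TWEAK) had 16, 17 and 26 counts and Tnfsf10 (TRAIL) had 33, 29 and 30, with values of 0.46 (-0.49 to 1.46) and -0.38 (-1.14 to 0.38) for OSM against vehicle. Per unit of length, Tnfrsf12a exceeded its ligand gene Tnfsf12 293 times with vehicle, 287 times with IL-6 and 418 times with OSM, or 625, 613 and 892 times with main transcript lengths. The IL-1 antagonist Il1rn had 0, 2 and 0 counts.

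**Figure D4:**
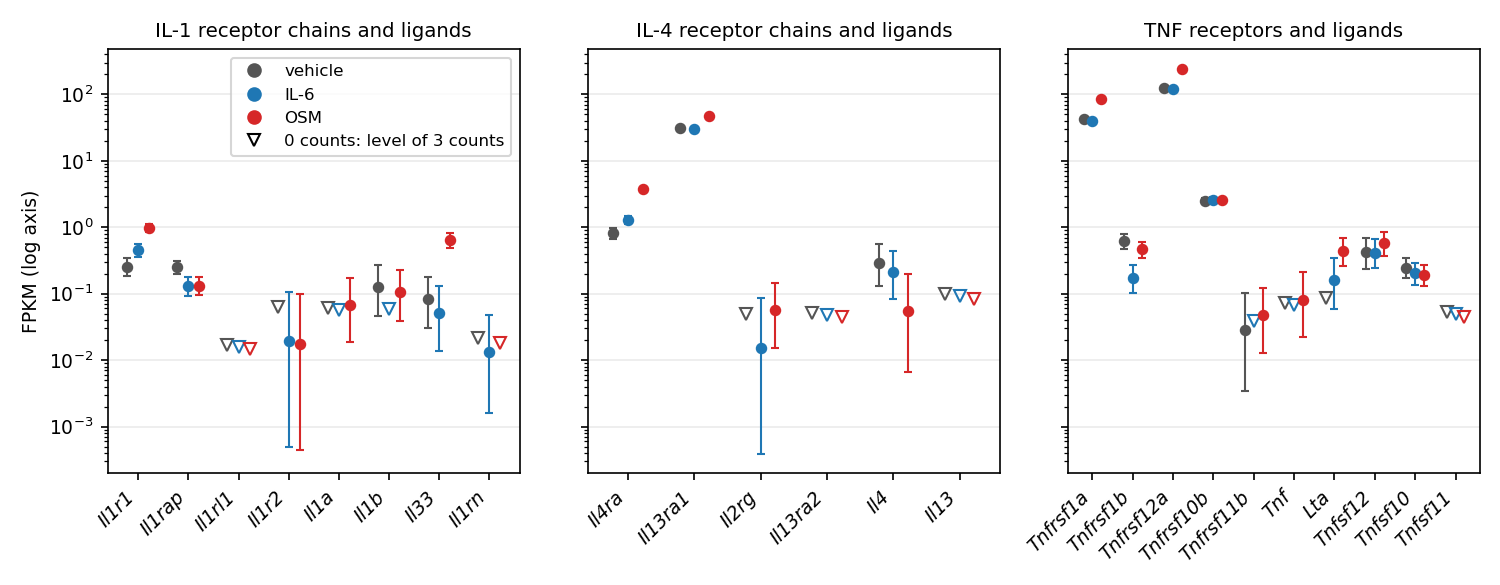
Level in FPKM (log axis) of receptor chains and ligands of the IL-1, IL-4 and TNF families in each library, with exact 95% Poisson intervals and open triangles at the level of 3 counts where a library had 0 counts. Il13ra1 lies above Il4ra in every library, most ligands lie below 1 FPKM, and Il33 and Lta have their highest level with OSM.

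Of the genes that act below the IL-1 receptor, 11 of 11 were compared for OSM against vehicle, and 1 was called higher and 0 lower. Over all genes in that comparison, 3.74% were called higher and 5.43% lower. The intervals of 33.4% of all genes lay above no difference and of 33.1% below it. The median of the 11 was -0.40. Myd88, the adaptor of IL-1 receptors, had 673, 725 and 3177 counts with vehicle, IL-6 and OSM, or 10.3, 10.4 and 41.3 FPKM, and was 3.99-fold higher with OSM than with vehicle (log2 2.00, interval 1.88 to 2.12). The intervals of 2 of the 11 lay above no difference. Those of 6 lay below it, among them Map3k7 (TAK1) at -0.78, Irak1 at -0.43 and Traf6 at -0.40. Of 17 TNF receptor adaptors and regulators, 16 were compared, 1 was called higher and 0 lower, with a median of 0.15. Among the 16, the intervals of 7 lay above no difference and of 4 below. The called gene was Casp8, the caspase recruited by death receptors, with 8, 13 and 73 counts (log2 2.95, interval 1.89 to 4.21), while Otulin at 0.60, Traf3 at -0.67, Cflar at -0.49 and Cyld at -0.88 were not called. Cflar and Cyld are long genes (12669 and 12576 bases), and coding genes in their length bins had medians of -0.72 and -0.45. Of 8 genes of IL-4 receptor signaling, 7 were compared for OSM against vehicle and 0 were called, with a median of -0.23. The intervals of 2 lay above no difference and of 5 below. Socs1, a feedback inhibitor of this list, had 4, 3 and 25 counts. It was the 1 gene of 7 called higher for OSM against IL-6 (against 4.24% of all genes). Jak1 was at 27.2, 25.6 and 20.8 FPKM and Stat6 at 14.1, 13.9 and 12.5 FPKM, with -0.39 (-0.45 to -0.33) and -0.17 (-0.27 to -0.07) for OSM against vehicle.

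Genes known to respond to IL-1 or TNF had values on both sides of no difference. Of 18 such genes, 16 were compared for OSM against vehicle, and 4 were called higher and 0 lower (against 3.74% and 5.43% of all genes). Their median was 0.47 when the gene with 0 vehicle counts is placed at its bound. Ptgs2 (COX-2) had 52, 34 and 798 counts with vehicle, IL-6 and OSM (log2 3.70, interval 3.29 to 4.13), and Il6, Ccl2 and Zc3h12a were at 3.15, 1.86 and 1.68. The vascular adhesion genes Icam1 and Vcam1 were at -0.76 and -0.76 and were not called, and Nfkbia was at 0.52 and Sod2 at 0.03. Sele, another adhesion gene of the list, had 61 counts with vehicle, 20 with IL-6 and 119 with OSM. It was not called for OSM against vehicle and was called higher for OSM against IL-6. Of the 16 compared for OSM against vehicle, the intervals of 10 lay above no difference and of 2 below (33.4% and 33.1% of all genes). Of 10 genes known to respond to IL-4, 4 were at 0 in every library and 3 were compared, of which Cish, a STAT-induced feedback inhibitor, was called higher, with 151, 215 and 617 counts (log2 1.79, interval 1.53 to 2.06). With IL-6 against vehicle, none of these 4 lists (adaptors of IL-1 and of TNF receptors, IL-4 receptor signaling, response to IL-1 or TNF) held a gene called in either direction. Over all genes in that comparison, 1.77% were called higher and 1.74% lower.

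**Figure D5:**
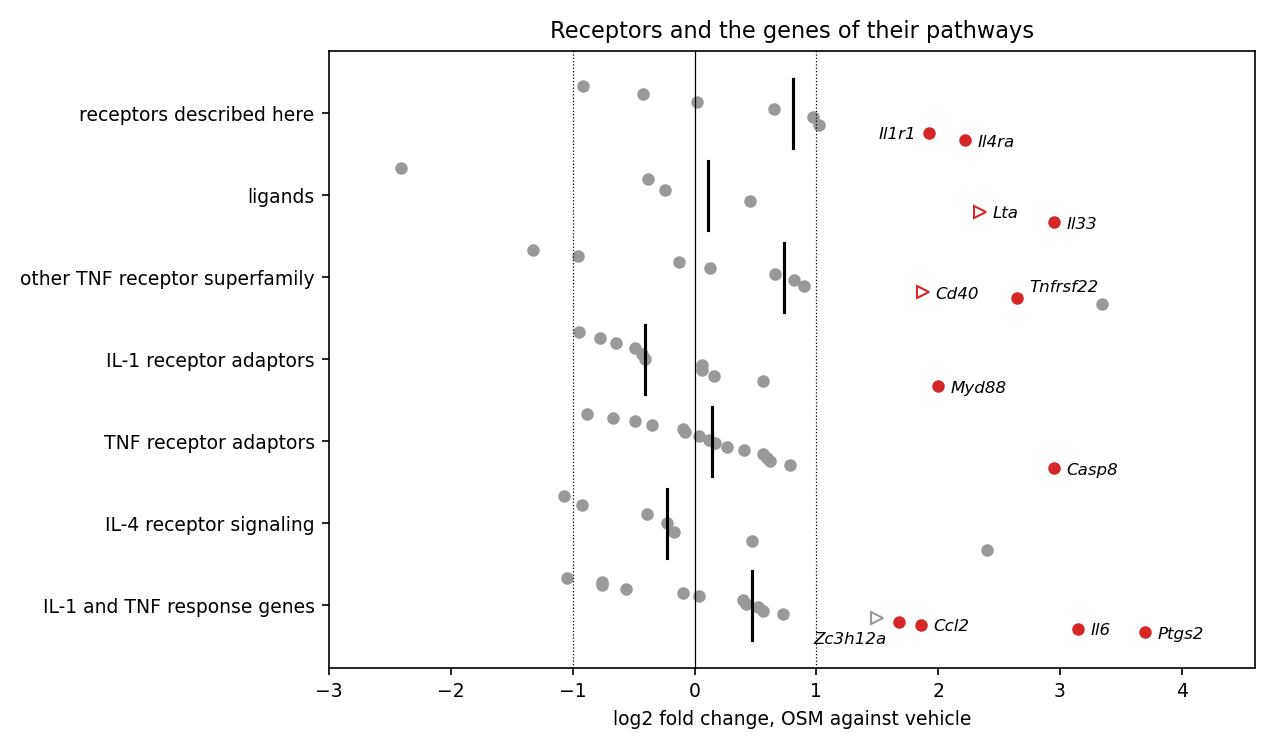
Log2 fold change for OSM against vehicle (x axis) of the receptor genes, their ligands, other TNF receptors, adaptors, IL-4 receptor signaling genes and response genes, 1 point per gene, with a black bar at the median of each list, open triangles at the bound of genes with 0 vehicle counts, and dotted lines at 2-fold. Points called higher are red and named, and each of the lists of IL-1 and TNF receptor adaptors holds 1.

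Other TNF receptors were measured beside these. Of 22 further genes of the superfamily, 10 were compared for OSM against vehicle, and 2 were called higher and 0 lower (against 3.74% and 5.43% of all genes). Their median was 0.74 when Cd40 is placed at its bound, near the 0.81 of the receptors described here. Cd40 had 0, 4 and 13 counts with vehicle, IL-6 and OSM (at least 3.67-fold higher with OSM against 3 counts, lower bound of the counting interval at log2 1.37) and Tnfrsf22, a decoy receptor for TRAIL in mice, had 5, 9 and 37 counts (log2 2.65, interval 1.30 to 4.35). Cd40 passed the filter of 10 counts only through its OSM counts, so its call and the filter rest on the same counts. Eda2r and Ltbr were the most abundant with vehicle, at 21.5 and 20.6 FPKM. Ltbr, the lymphotoxin beta receptor, had 1224, 1293 and 2703 counts and, at 0.90 (0.80 to 1.00) for OSM against vehicle, was not called. Of the 7 other IL-1 receptor family genes, 0 reached 10 counts over the vehicle and OSM libraries.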

How the data were processed

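RNA was pooled by the authors within each condition, poly(A)-selected and sequenced in pairs. Per the labels, the submitters' processing notes name fastp, HISAT2 2.2.1, featureCounts 2.0.6 and edgeR 4.0.16, with build mm39 (GRCm39), while the methods of the study give other versions of featureCounts and edgeR. The authors deposited whole-number counts per gene and FPKM of the same genes, and the deposited FPKM equals the count divided by gene length and by a constant per library. That constant was 25296726 with vehicle, 27098375 with IL-6 and 29867031 with OSM. The counts assigned to genes were 24939980, 26362446 and 30773001, so the constant is not the total alone. Groups were taken from the sample labels.

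From the counts, TMM factors were computed for each pair of libraries (edgeR 4.0.16, R 4.3.3). Comparison needed 10 or more counts in the libraries of a pair together. The log2 ratio of scaled counts was given a 95% Clopper-Pearson interval (scipy 1.17.1), and a gene was called when the interval lay wholly beyond 2-fold. Such a comparison is between libraries, not conditions. A library at 0 was set to 3 counts for a bound. No test across replicates was possible, and differences between libraries other than the treatment cannot be told apart from it. Gene lists hold 11 pathway lists and 7 marker lists. The text names the 10 receptors, all ligands and partner chains, and of other lists up to 4 called genes with the largest fold and up to 2 with the highest vehicle FPKM, while other listed genes were picked with their values in view. The receptors and lists were chosen with earlier results of these data known. The 15 alternatives covered scaling, filters, the calling rule, pseudocounts, assumed variation between replicates and gene length, and the length of the main annotated transcript was added after seeing the data. Motifs were searched in RefSeq promoter sequences.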

Additional observations from a re-analysis of the deposited data

How the results depend on the processing

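Of the 90 counts of called receptors recomputed under 15 alternatives, 70 stayed within 1.5 times, 8 were larger and 12 smaller. The 70 include counts of 0 that stayed at 0, so they do not measure how stable the calls were. Such main counts of 0 were those of receptors lower with OSM against vehicle or IL-6 and higher with IL-6 against vehicle. No called fold change turned its direction. With 1 library per condition, no replicate could be left out, and variation between cultures, which counting intervals do not hold, was only assumed. No paired analysis was possible because each condition has 1 library and the result comes from no test. The 5 receptors with under 100 counts in a library (Il1r1, Il1rap, Tnfrsf1b, Tnfrsf11b and Il1rl1) are limited by depth.

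Scaling by total counts gave 1 receptor higher for OSM against IL-6 (2 in the report), against 3.5% of all genes under that scaling. With an interval beyond no difference, 5 receptors were higher and 1 lower for OSM against vehicle, 3 higher and 3 lower for IL-6 against vehicle, and 5 higher for OSM against IL-6. Under that rule, of all genes compared 33.4% were higher and 33.1% lower for OSM against vehicle, 19.6% and 19.1% for IL-6 against vehicle, and 33.2% were higher for OSM against IL-6. With an interval beyond 1.5-fold, 4 were higher with OSM than with vehicle and 5 with OSM than with IL-6 (8.73% and 8.78% of all genes), and with the point estimate beyond 2-fold, 5 for OSM against IL-6 (1557 of 15544 genes). With an assumed variation of 10%, 0 were lower for IL-6 against vehicle (0.924% of all genes) and 1 higher for OSM against IL-6 (2.46%). With 20%, 1 was higher for OSM against vehicle (Il4ra), against 1.48% of all genes. At that variation 0 were lower for IL-6 against vehicle (0.73% of all genes) and 0 higher for OSM against IL-6 (1.81%). A prior count of 1 or an FPKM ratio with a pseudocount of 0.1 gave 0 lower for IL-6 against vehicle (1.38% and 1.11% of all genes). An FPKM ratio with a pseudocount of 1 gave 1 higher for OSM against vehicle (2.09% of all genes). That ratio gave 0 lower for IL-6 against vehicle (1.03%) and 1 higher for OSM against IL-6 (2.52%). With the trend on gene length removed, 1 was higher for OSM against IL-6 (4.19% of all genes).

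Over all genes, calls for OSM against vehicle ran from 230 higher and 300 lower to 5186 higher and 5137 lower (581 and 844 in the report), IL-6 against vehicle gave from 31 and 25 to 3028 and 2953 (274 and 269), and OSM against IL-6 from 281 and 312 to 5160 and 5156 (659 and 843).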

Other observations

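Enzymes and regulators that shed cytokine receptors from the cell surface were measured beside the receptors. Of 7 such genes, 7 were compared for OSM against vehicle and 0 were called in either direction (against 3.74% higher and 5.43% lower of all genes). Their median log2 fold change was 0.15. Adam17, the main sheddase of TNF and its receptors, had 1377 counts with vehicle and 1517 with OSM (log2 -0.10, interval -0.21 to 0.00), and Adam10 had 1234 and 1613 (0.15, 0.04 to 0.25). Timp3, an inhibitor of ADAM17, had 104 and 182 counts (0.57, 0.21 to 0.93), and the iRhom genes Rhbdf1 and Rhbdf2, which bring ADAM17 to the surface, were at 0.30 and -0.45. Il7r, which like Il4ra encodes a chain that pairs with the common gamma chain, had 12 counts with vehicle and 0 with IL-6 and with OSM, and was called lower in both, by at least 4.29-fold and 4.73-fold against 3 counts, with the counting intervals reaching to -1.57 and -1.72 on the log2 scale.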
